A study of Mus musculus with 14 samples.

Results

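The genes described here encode the 4 pyruvate dehydrogenase kinases (Pdk1 to Pdk4), the opposing phosphatase subunit Pdp1, both subunits of the first enzyme of the pyruvate dehydrogenase complex (Pdha1 and Pdhb), pyruvate carboxylase (Pcx) and the mitochondrial pyruvate carrier (Mpc1 and Mpc2). They were chosen by name, as the rows of the count table that carry these 10 symbols, out of 54532 genes. Earlier results of these data were known when the choice was made, so counts of calls among them are descriptive. All 10 passed the filter on low counts, as did 13846 genes in all. Ileum mucosa was sampled from 7 WT and 7 IKO mice, with 1 RNA library for each. WT mice carried NCoR1 flox/flox alleles without Cre, and IKO mice carried the same alleles with Cre under the villin promoter, which is active in the epithelium of the intestine. All were males, young adults when the diet began, and all had eaten a high-fat diet (HFD) for 15 weeks. The mucosa was scraped, so cells without Cre were also sampled, although the labels name the epithelium alone. Whether the mice had eaten before sampling is not given in the sources used here.

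Pyruvate formed in glycolysis stands at a branch point. In the cytosol it can be reduced to lactate or transaminated to alanine. The carrier brings it into mitochondria, where the pyruvate dehydrogenase complex turns it irreversibly into acetyl-CoA, while pyruvate carboxylase adds a carboxyl group and makes oxaloacetate. The kinases phosphorylate and switch off the complex, and the phosphatases switch it on again. PDK4 is known as the kinase whose transcript rises when fatty acids or fasting take the place of glucose, through nuclear receptors such as the PPARs and through FOXO factors. Enterocytes are also known for sending lactate and alanine to the portal vein.

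The targeted gene, Ncor1, had 106 to 195 CPM (counts scaled to the TMM-normalized library size) in WT mice and 31.7 to 64.0 CPM in IKO mice, so the values of the labelled groups did not overlap (log2 fold change -1.41, adjusted p = 0.00051 in edgeR). Depth was 14749669 to 21557468 counts per mouse. The TMM factors that scale it were 0.93 to 1.53 in WT and 0.58 to 0.97 in IKO mice. The share of counts on genes of the mitochondrial genome was 3.49% to 10.3% in 12 libraries, 23.9% in WT 3 and 50.3% in IKO 4. WT 4 held 13252 CPM of smooth muscle markers in sum, where the WT median was 179. The summed enterocyte markers ranged from 15896 to 48131 CPM in WT and from 32853 to 42418 CPM in IKO mice, and all 7 IKO mice were above the WT median. Fabp2 had the highest level in this sum (median 18205 CPM in WT and 22828 CPM in IKO mice). The list was not uniform, as Alpi was above the WT median in 0 IKO mice and Fabp6 in 1. Each other gene of the list was above it in 5 or 6. Summed markers of stem and cycling cells were lower than the WT median in all 7 IKO mice (76.8 to 205 CPM, against 100.5 to 331 in WT). Leukocyte markers summed to 41.0 to 352 CPM in WT mice, highest in WT 3 and WT 7 (352 and 255), and to 29.7 to 75.3 CPM in IKO mice. Fibroblast and endothelium markers were above the WT median in 1 IKO mouse each. The fibroblast sum was 249 CPM in WT 4 and 5.18 to 45.0 CPM in the other WT mice. Its medians were 23.0 CPM in WT and 14.4 CPM in IKO mice, so the fold changes of this list lean on WT 4. An unadjusted p under 0.05 (edgeR) was found for 3 of 4 tested fibroblast, 3 of 4 stem and cycling and 3 of 6 leukocyte genes. The other lists had at most 1 such gene. Median log2 fold changes of these 3 lists were -1.88, -1.04 and -0.90, with 0, 0 and 1 genes above 0. By that measure 11.9% of all genes tested were higher and 18.5% lower in IKO mice. No marker gene of these lists passed an adjusted p of 0.05, and the part of cell makeup in the results below was not tested. In such bulk samples, more cells of a type and more RNA per cell cannot be told apart.

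Of the 10 genes, Pdk4 and Pcx were higher in IKO mice and 0 were lower at an adjusted p under 0.05 (edgeR, corrected over the 13846 genes tested). In the background of all genes tested, 4.38% were called higher and 4.28% lower. At an unadjusted p under 0.05 there were 5 genes (Pdk1, Pdk3 and Mpc2 in addition), all of them higher in IKO mice, where 11.9% of all genes tested were higher and 18.5% lower by that measure. DESeq2 called 3 members higher and 0 lower, against 7.62% and 8.86% of the genes it tested. The log2 fold change was above 0 for 8 of the 10, with a median of 0.41, where the median of all genes tested was -0.09. Pdk4 and Pcx were also the only members whose TMM-scaled IKO values all lay above all WT values, a pattern found in 1.83% of the genes tested. For Pcx this depended on the scaling (below). The opposite pattern, found in 1.26% of genes, was seen in 0 members.

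**Figure D1:**
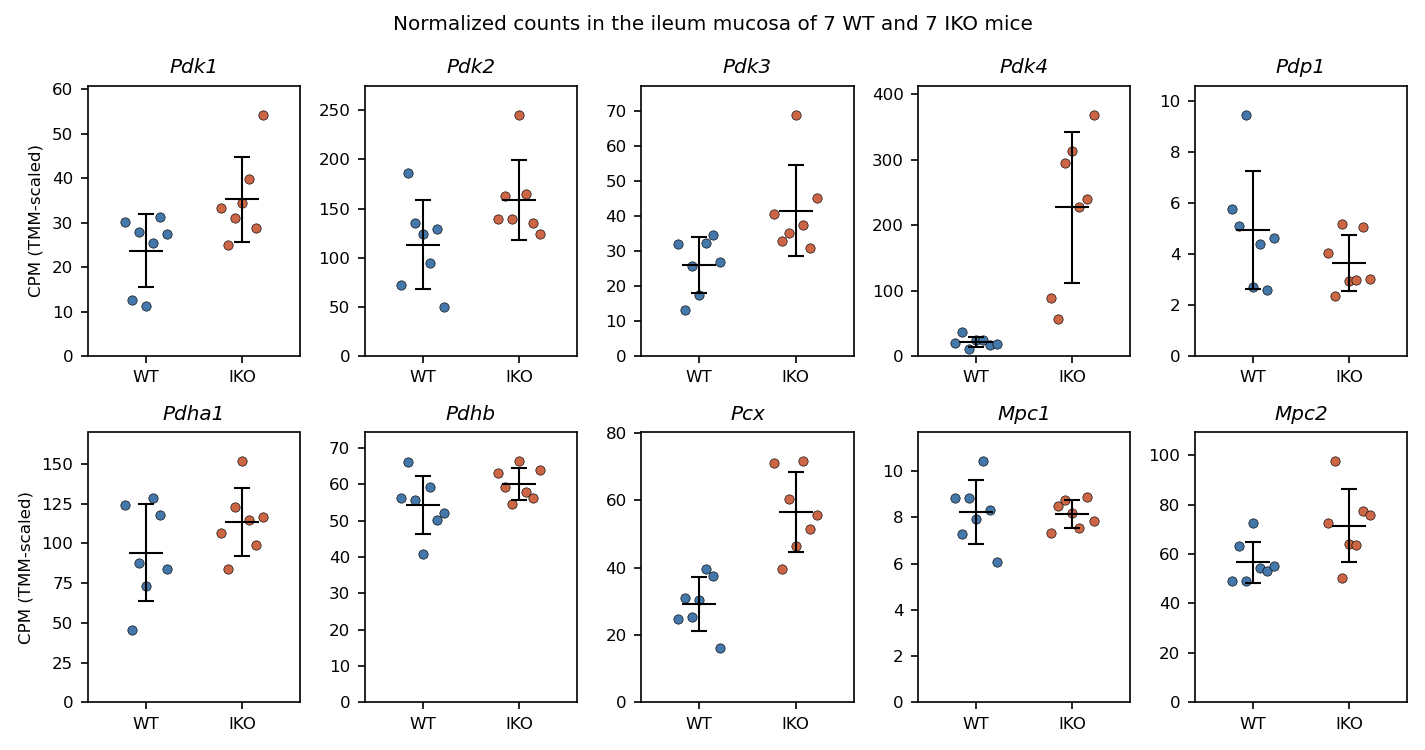
CPM of the 10 genes in each WT (blue) and IKO (orange) mouse, with the group mean and SD as bars and a linear axis from 0 in each panel. On this scale the groups are separate for Pdk4 and, narrowly, for Pcx. IKO 1 and IKO 2 (88.8 and 57.2 CPM) lie below the other IKO mice for Pdk4.

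Among the kinases, Pdk4 (chr6:5483351-5496309, minus strand, mm10) showed the largest difference. Its level in WT mice ran from 10.1 in WT 3 to 36.7 CPM in WT 2, with a median of 19.4. In IKO mice it was 57.2 CPM in IKO 2 and 88.8 in IKO 1, and between 228 and 369 CPM in the other 5 mice. The groups did not overlap, and the spread within IKO mice was wide (SD 116 CPM around a mean of 227). The fitted difference was 10.7-fold, with a 95% interval of 5.92 to 19.4 (log2 fold change 3.42, standard error 0.40, adjusted p = 0.000267 in edgeR). IKO 1 and IKO 2, the lowest of the IKO mice for Pdk4, had the most smooth muscle marker RNA among IKO mice (1147 and 597 CPM against 124 to 167 in the other 5), a part that was not tested. Ncor1 was at 46.9 CPM in IKO 1 and at 31.7 in IKO 2, the latter the lowest value of all mice. The 6 adipocyte markers summed to 82.9 to 177 CPM in IKO mice (median 135) and to 22.01 to 171 CPM in WT mice (median 82.0), and all 7 IKO mice were above the WT median. Most of this was Cidec, a lipid droplet protein (log2 fold change 0.70, adjusted p = 0.194 in edgeR). Cfd, Retn and Adipoq, with IKO medians of 2.89, 1.18 and 0.36 CPM, were above the WT median in 7, 7 and 6 IKO mice. Plin1 and Lep were above it in only 4 IKO mice each. Lep had its highest value in a WT mouse (5.98 CPM, against at most 1.52 in IKO mice). The 5 striated muscle markers summed to 0.73 to 28.3 CPM in WT mice, highest in WT 4, and to 0.60 to 10.1 CPM in IKO mice, highest in IKO 1, with 3 IKO mice above the WT median. Mb and Myh2 of that list had 3 and 1 counts in all libraries together. Adipose tissue and striated muscle are known for high Pdk4, and the part of either in its level was not tested.

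The bases just upstream of Pdk4 and Pcx, the members called, are shown with the matches of 6 short motifs searched on both strands of the 250 bases before each annotated start (RefSeq, GRCm38.p6, 13 windows for 9 of the 10 members). Capitals mark a match. The Pdk4 bases are chr6:5496310-5496528 on the minus strand and those of Pcx chr19:4510222-4510471 on the plus strand, both 5′ to 3′ and ending at the base before the gene.
Pdk4: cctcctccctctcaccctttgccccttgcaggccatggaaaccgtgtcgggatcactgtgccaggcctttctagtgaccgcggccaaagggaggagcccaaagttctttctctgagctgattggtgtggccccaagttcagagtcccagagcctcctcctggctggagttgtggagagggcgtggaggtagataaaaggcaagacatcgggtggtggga
Pcx: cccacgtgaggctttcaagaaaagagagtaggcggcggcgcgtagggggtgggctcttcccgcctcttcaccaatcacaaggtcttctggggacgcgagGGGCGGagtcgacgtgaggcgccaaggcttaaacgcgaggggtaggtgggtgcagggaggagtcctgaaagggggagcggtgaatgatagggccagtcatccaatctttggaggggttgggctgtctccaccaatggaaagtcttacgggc
The Pdk4 stretch of 219 bases held no match and that of Pcx held GGGCGG, the Sp1 box, 151 to 146 bases before the start. This box stood in windows of Mpc1, Mpc2, Pdhb, Pdk1 and Pdk3 too, and in 32.7% of 32851 mouse promoter windows. The nuclear receptor motif AGGTCA matched in a window of Mpc1 and in 14.02% of all windows. Its direct repeat spaced by 1 base (DR1), the estrogen-related receptor motif TCAAGGTCA, the forkhead motif TGTTTAC and the TATA box TATAAA matched in no member window, and in 0.033%, 0.387%, 3.17% and 12.4% of all windows. These windows are short, and elements further away were not searched. Only exact matches were counted, so sites that differ from a motif by a base were missed. An exact DR1 stood in only 11 of the 32851 windows, so its absence from the 13 member windows is uninformative.

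Pdk3, a kinase encoded on the X chromosome (chrX:93764607-93832201), had 13.2 to 34.5 CPM in WT mice (median 26.7) and 30.8 to 68.8 CPM in IKO mice (median 37.3). In 5 of 7 IKO mice it lay above all WT mice, and IKO 4 was far above the rest. Its log2 fold change was 0.67 (95% interval 0.19 to 1.16, adjusted p = 0.0735 in edgeR), and DESeq2 alone called it (log2 fold change 0.71, adjusted p = 0.0371). Without WT 3, WT 4 and IKO 4, the libraries that stood apart, it was 0.41.

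Pdk1, best known as a kinase induced in hypoxia, ranged from 11.3 to 31.2 CPM in WT and from 25.0 to 54.3 CPM in IKO mice, with medians of 27.5 and 33.3. The low WT values came from WT 4 and WT 2 (12.6 CPM), and 4 IKO mice lay above all WT mice. The log2 fold change of 0.57 had an interval of 0.06 to 1.09 and did not pass (adjusted p = 0.132 in edgeR). Pdk2, the kinase expressed most widely across tissues, had 49.8 to 187 CPM in WT (median 124) and 124 to 245 CPM in IKO mice (median 140). Only IKO 4 exceeded the highest WT mouse, and the interval of the log2 fold change, -0.05 to 1.03 around 0.49, included 0 (adjusted p = 0.203 in edgeR). WT 7 and WT 1, the WT mice lowest in Pdk2 (49.8 and 72.5 CPM), were also those lowest in the summed enterocyte markers. WT 2 was the highest WT mouse in both. WT 2 combined the highest WT levels of Pdk2 and Pdk4 with low levels of Pdk1, Pdk3 and Pdha1.

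**Figure D2:**
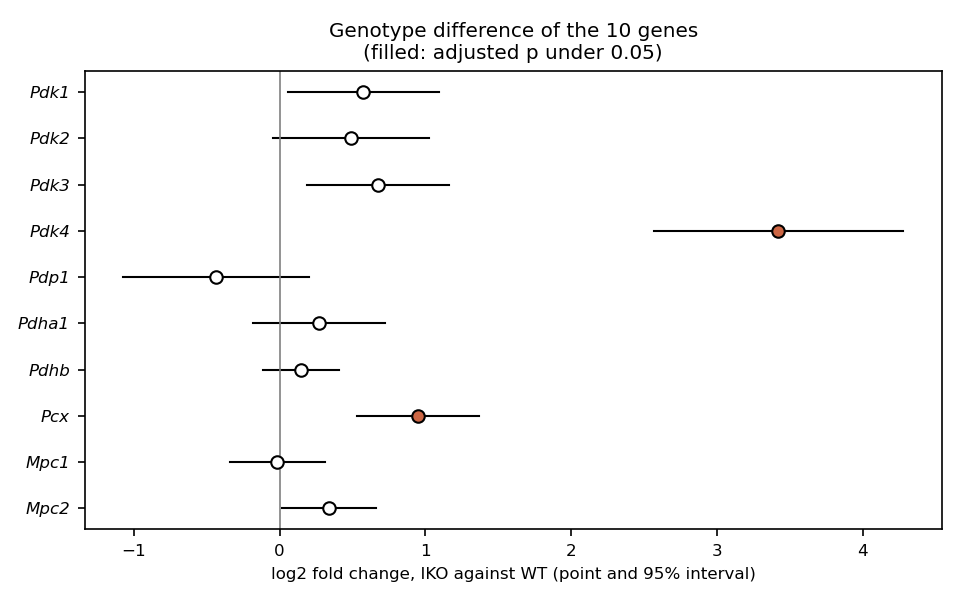
Log2 fold change (IKO against WT) of the 10 genes from edgeR with its 95% interval, filled where the adjusted p is under 0.05. Pdk4 (3.42) and Pcx (0.95) are filled, and the intervals of Pdk1, Pdk3 and Mpc2 also lie above 0 before correction for the number of genes.

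The mix of kinase transcripts differed as well. On the deposited FPKM scale, which divides by gene length, the 4 kinases summed to 33.8 to 74.3 in WT and 83.6 to 201 in IKO mice, without overlap. Pdk4 made up 11.2% ± 3.64 (SD, n = 7) of that sum in WT mice, from 4.87% to 14.9%, and 44.9% ± 15.7 (SD, n = 7) in IKO mice, from 19.5% to 62.2%. Its share was thus higher in every IKO mouse than in any WT mouse. Pdk2 held the largest share in every WT mouse (45.2% to 77.4%), and Pdk4 held it in 5 of 7 IKO mice, with Pdk2 still first in IKO 1 and IKO 2. Shares of Pdk1 (6.02% in WT and 3.49% in IKO mice) and of Pdk3 (19.9% and 12.3%) were lower on average in IKO mice, although their levels were not, since the shares sum to 100. These shares follow from the same counts as the levels and were given no test.

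**Figure D3:**
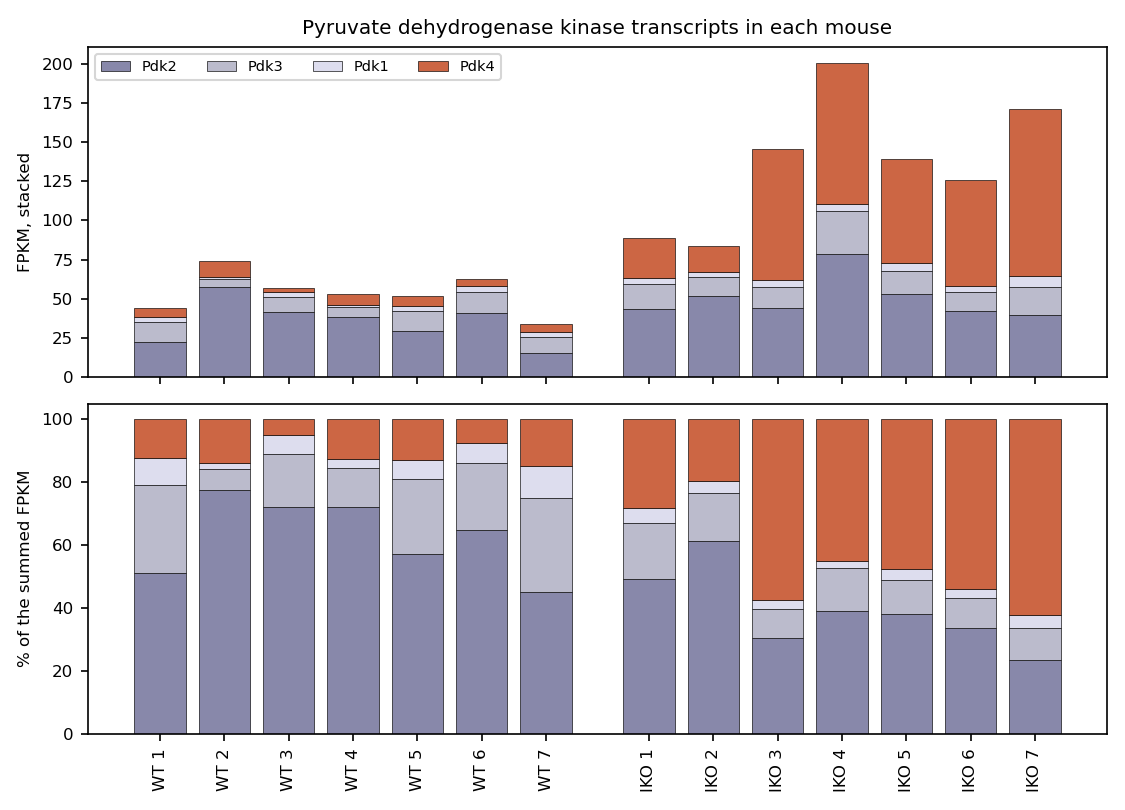
FPKM of Pdk1 to Pdk4 stacked for each mouse (upper panel) and as a percent of their sum (lower panel). Pdk4 (orange) is 4.87% to 14.9% of the sum in the WT mice and 19.5% to 62.2% in the IKO mice.

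Ratios taken within each mouse cancel its library size. The log2 ratio of Pdk4 to Pdk1 was -0.15 ± 1.09 in WT and 2.48 ± 0.84 in IKO mice (SD, n = 7 each), a difference of 2.63 (exact two-sided permutation test, p = 0.00233, adjusted p = 0.00389 over 5 ratios). For Pdk4 to Pdk2 the difference was 2.70 (exact p = 0.00117, adjusted p = 0.00389) and for Pdk4 to Pdk3 it was 2.57 (exact p = 0.00175, adjusted p = 0.00389). The ratio to Pdk2 was above all WT mice in 6 IKO mice, and the others were in 5. Pdk4 thus differed between the genotypes more than each of the other kinase genes did, beyond the spread of the mice. The smallest p that 7 against 7 mice allow is 0.000583.

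Pdha1, Pdhb and Pdp1 did not pass the test, and their values overlapped between the genotypes. Pdp2, the other catalytic phosphatase subunit, is not a member and was called higher (below). Pdha1, the X-linked subunit that carries the phosphorylated serines, had 45.4 to 128 CPM in WT (median 87.4) and 83.7 to 152 CPM in IKO mice (median 115). WT 2 was the lowest mouse, and WT 2 and WT 4 (73.0 CPM) lay below all IKO mice. IKO 4 lay above all WT mice, and the rest overlapped (log2 fold change 0.27, interval -0.19 to 0.72, adjusted p = 0.410 in edgeR). Pdhb, its partner subunit, had 40.8 to 66.1 CPM in WT (median 55.7) and 54.5 to 66.2 CPM in IKO mice (median 59.1). The interval of its log2 fold change, -0.11 to 0.41, lay below the value of Pcx (adjusted p = 0.435 in edgeR). Pdp1, a catalytic phosphatase subunit, was the lowest member, with 27 to 141 counts per mouse. It had 2.57 to 9.45 CPM in WT and 2.36 to 5.15 CPM in IKO mice. IKO 2 was below all WT mice, WT 1 and WT 3 were above all IKO mice, and the rest overlapped (log2 fold change -0.43, interval -1.07 to 0.20, adjusted p = 0.339 in edgeR). At this depth a change of Pdp1 to a level 0.48 times that in WT, or 1.15 times, lies within its interval.

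The subunits form 1 enzyme, but shared variation of their RNA from mouse to mouse was not detected. After removal of the genotype means, Pdha1 and Pdhb had a Pearson r of -0.05 over 14 mice (permutation test, p = 0.895) and a Spearman rho of 0.17 (p = 0.594 by permutation). Without WT 2 and WT 5, the mice farthest out in Pdha1, r was 0.51. Within genotypes r was -0.16 in WT (exact p = 0.731) and 0.40 in IKO mice (exact p = 0.378). For the carrier pair Mpc1 and Mpc2, r was -0.17 (permutation p = 0.526) and rho -0.30 (permutation p = 0.311). It was -0.30 without WT 7 and WT 5, -0.31 within WT (exact p = 0.484) and -0.02 within IKO mice (exact p = 0.961). Pdk4 and Pcx had an r of 0.22 (permutation p = 0.421) and a rho of 0.09 (permutation p = 0.745), 0.17 without IKO 1 and IKO 2, 0.29 within WT (exact p = 0.529) and 0.21 within IKO mice (exact p = 0.650). Adjusted over these 3 relations, p was 0.895 for the first and 0.788 for the others, so none was told apart from 0 with this number of mice.

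Pcx (chr19:4510472-4621752, plus strand), which supplies oxaloacetate, was the other member called. Its level was 16.1 to 39.5 CPM in WT mice (median 30.4) and 39.7 to 71.6 CPM in IKO mice (median 55.5). The groups met without crossing, since IKO 2 at 39.7 CPM was just above WT 5 at 39.5. This order rests on the scaling, with TMM factors of 0.94 in IKO 2 and 1.07 in WT 5. On library totals without those factors, WT 5 lay above IKO 2. In deposited FPKM, IKO 2 had 8.55 and WT 5 had 8.39. The difference was 1.94-fold, with an interval of 1.45 to 2.59 (log2 fold change 0.95, standard error 0.20, adjusted p = 0.0115 in edgeR). WT 7, lowest in Pcx, was also lowest in the summed enterocyte markers, and without it the log2 fold change was 0.83 and still passed. Lrfn4, on the opposite strand, overlaps Pcx and had 1191 counts in all against 10695 for Pcx. The strand setting of the counting is not given in the sources used here.

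Relative to the complex, Pcx stood higher in IKO mice. The log2 ratio of Pcx to Pdhb was -0.93 ± 0.47 in WT and -0.11 ± 0.34 in IKO mice (SD, n = 7 each), a difference of 0.82 (exact permutation p = 0.00466, adjusted p = 0.00583), with 5 IKO mice above all WT mice. For Pcx to Pdha1 the difference was 0.65 (exact permutation p = 0.0338, adjusted p = 0.0338) and 0 IKO mice lay above all WT mice, because WT 2 had little Pdha1. This last call was lost on leaving out any of 11 mice, with adjusted p of 0.0519 to 0.0693.

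**Figure D4:**
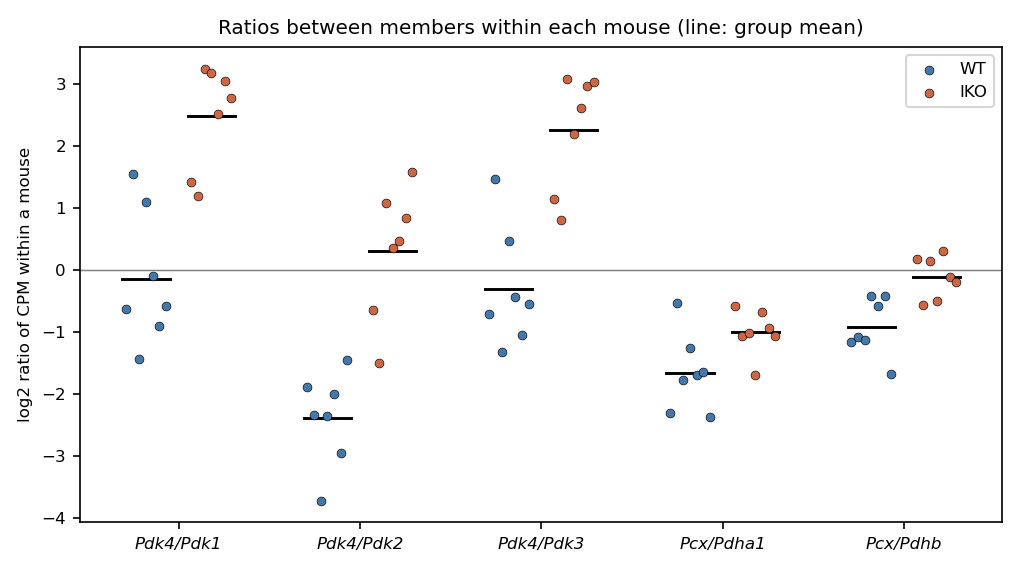
Log2 ratio of CPM between members within each mouse, for WT (blue) and IKO (orange), with the group means as lines. All but 1 to 2 IKO mice lie above every WT mouse for the Pdk4 ratios, while the groups overlap for Pcx/Pdha1.

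The carrier genes showed no difference that passed. Mpc2, the larger of both in counts, had 49.1 to 72.3 CPM in WT (median 54.2) and 50.2 to 97.4 CPM in IKO mice (median 72.4). In 4 IKO mice it was above all WT mice (log2 fold change 0.34, interval 0.01 to 0.66, adjusted p = 0.149 in edgeR). Mpc1 had 6.05 to 10.4 CPM in WT and 7.31 to 8.89 CPM in IKO mice, with medians of 8.30 and 8.20. Its log2 fold change was -0.02 (interval -0.34 to 0.31, adjusted p = 0.957 in edgeR), and its sign turned under other scalings.

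The Mpc1 value is uncertain because a processed pseudogene, Mpc1-ps (chr12:110858565-110858894, minus strand, 330 bases), shares part of its sequence. The Mpc1 transcript with the longest coding sequence (504 bases) was compared, and other Mpc1 transcripts were not. Its coding bases 244 to 504, up to and including the stop codon, match the pseudogene over 261 bases with 0 differences. A read that lies within this stretch fits both genes. It is shown from the GENCODE M21 transcript, 5′ to 3′, with no base in capitals because none differs.
Mpc1: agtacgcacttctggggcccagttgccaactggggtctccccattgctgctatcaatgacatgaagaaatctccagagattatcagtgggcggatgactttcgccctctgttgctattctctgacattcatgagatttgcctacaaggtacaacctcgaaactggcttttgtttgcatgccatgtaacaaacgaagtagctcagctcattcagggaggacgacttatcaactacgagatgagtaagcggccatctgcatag
Mpc1-ps took 6207 counts over the 14 mice and Mpc1 took 2100, so most of the reads from this pair were counted on the pseudogene. Its level was 21.0 ± 7.65 CPM in WT and 29.2 ± 8.77 CPM in IKO mice (SD, n = 7 each), a log2 fold change of 0.47 that did not pass (adjusted p = 0.208 in edgeR). With the counts of both added, the level was 29.2 ± 8.62 CPM in WT and 37.4 ± 8.73 CPM in IKO mice (SD, n = 7 each). The log2 fold change of the sum was 0.35 (interval -0.08 to 0.78, adjusted p = 0.247 in edgeR), against -0.02 for Mpc1 alone. Which gene the shared reads came from cannot be told from counts. For the other members such copies mattered little, as Gm6123, a pseudogene of Pdhb, had 27 counts against 14540, and Map3k15, which overlaps the end of Pdha1 on the opposite strand, had 243 against 26543. No pair of kinase genes shared a stretch of at least 150 bases at 95% identity.

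Ranked by FPKM, Pdk2 stood first in WT mice (35.0 ± 13.9, SD, n = 7), followed by Pdha1 (24.7 ± 8.18), Pdhb (13.7 ± 1.99), Pdk3 (9.91 ± 3.11), Mpc2 (7.53 ± 1.11), Pcx (6.18 ± 1.74), Pdk4 (5.91 ± 2.30), Mpc1 (3.87 ± 0.66), Pdk1 (2.98 ± 1.05) and Pdp1 (1.07 ± 0.49). Pdk2 exceeded Pdha1 in only 4 of 7 WT mice and Pcx exceeded Pdk4 in 3 of 7, so neither neighbour was set apart by more than the spread. Pdk1 exceeded Pdp1 in 7 of 7. In IKO mice Pdk4 came first (65.1 ± 33.4), above Pdk2 (50.4 ± 13.3) in 5 of 7 mice. Pdha1 (30.5 ± 5.89) followed, below Pdk2 in all 7. Pdk3 (16.3 ± 5.21) and Pdhb (15.6 ± 1.22) were not separated, as Pdk3 was above in 2 of 7. Next came Pcx (12.2 ± 2.58), Mpc2 (9.76 ± 1.98), Pdk1 (4.55 ± 1.27), Mpc1 (3.92 ± 0.28) and Pdp1 (0.81 ± 0.24). Pdk4 moved from the seventh place to the first, while the order of Pdk2, Pdha1 and Pdhb among themselves was the same in both genotypes.

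The surroundings of the branch point were described with 71 other genes in 9 lists, of which 67 were tested. Of these, 13 were called higher and 1 lower, against a background of 4.38% and 4.28% of all genes tested. The log2 fold change was above 0 for 49 of the 67, with a median of 0.35 against -0.09 over all genes. The call counts were unsteady, at 7 higher and 0 lower without WT 3, WT 4 and IKO 4, and 21 higher and 2 lower in DESeq2.

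**Figure D5:**
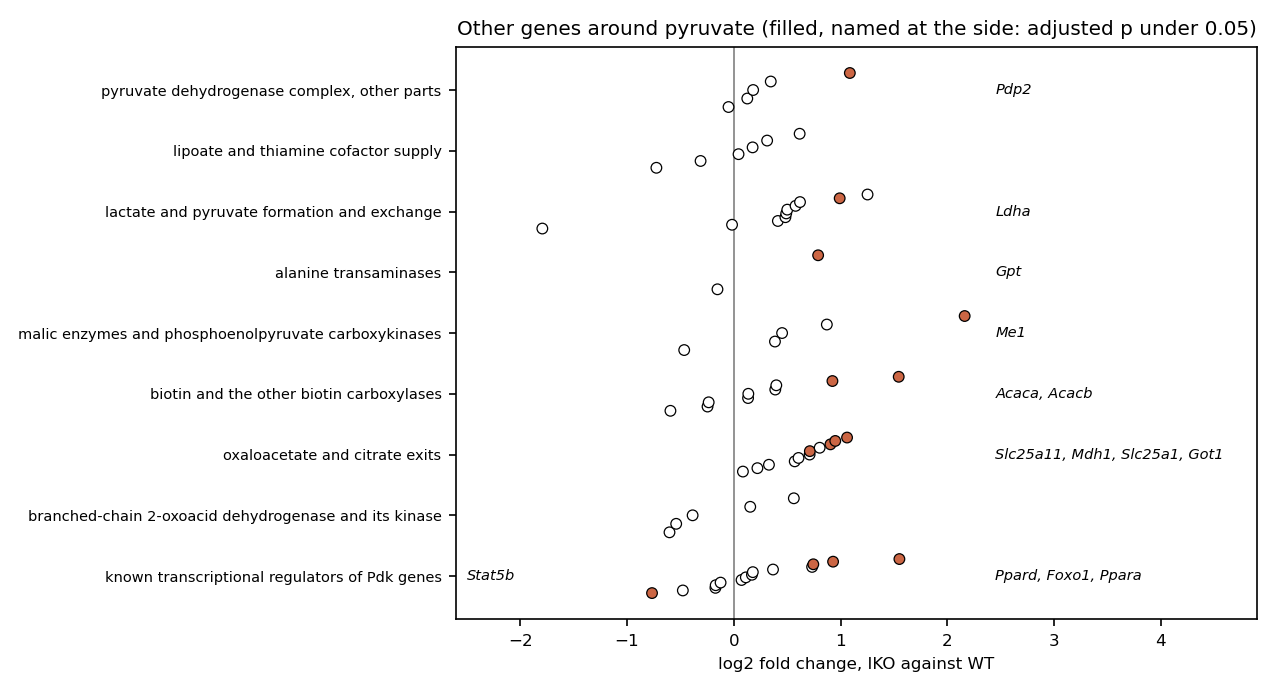
Log2 fold change (IKO against WT) of the 67 tested genes around pyruvate, 1 point per gene and 1 row per list, filled and named at the side where the adjusted p is under 0.05. The 13 genes called higher are spread over 7 of the 9 lists, and the only gene called lower is Stat5b.

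In the rest of the complex, Pdp2, the other catalytic phosphatase subunit, was 16.7 ± 9.30 CPM in WT and 35.5 ± 7.30 CPM in IKO mice (SD, n = 7 each). It was above all WT mice in 6 of 7 IKO mice and rose by a log2 fold change of 1.09 (adjusted p = 0.0353 in edgeR), a call held in 15 of 26 alternative fits. Pdp1, with the same activity, had a log2 fold change of -0.43 (above). The remaining subunits gave 0.18 for Dlat, 0.35 for Dld and 0.13 for Pdhx, with adjusted p of 0.505, 0.282 and 0.597 in edgeR. The testis form Pdha2 had 0 counts.

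On the cytosolic side, Ldha, which interconverts pyruvate and lactate, was among the most abundant of these transcripts, with 712 to 1362 CPM in WT and 1463 to 2398 CPM in IKO mice, without overlap. Its log2 fold change was 0.99 (adjusted p = 0.0116 in edgeR). Ldhb, the heart-type subunit, was not tested, as 1535 of its 1760 counts came from WT 4, the library high in smooth muscle markers. Bsg, the chaperone of the lactate transporters (0.41, adjusted p = 0.260 in edgeR), and the pyruvate kinase gene Pkm (0.49, adjusted p = 0.119 in edgeR) did not pass. Gpt, which makes alanine from pyruvate, had 174 to 468 CPM in WT and 475 to 599 CPM in IKO mice (log2 fold change 0.79, adjusted p = 0.0321 in edgeR). These groups did not overlap, yet the call was held in only 15 of 26 alternative fits. For Gpt2, the mitochondrial form, the value was -0.15 (adjusted p = 0.660 in edgeR).

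Other listed genes return carbon to pyruvate or draw on oxaloacetate and citrate. Me1, the cytosolic malic enzyme that forms pyruvate and NADPH, had 11.5 to 30.8 CPM in WT and 35.7 to 137 CPM in IKO mice, without overlap (log2 fold change 2.16, adjusted p = 0.00257 in edgeR). Me2, its mitochondrial relative, had 0.45 (adjusted p = 0.219 in edgeR). All 11 genes of the list of oxaloacetate and citrate exits had a log2 fold change above 0, with a median of 0.71. Of them 4 were called, all higher, where 4.38% of all genes tested were called higher. The genes called were the citrate carrier Slc25a1 (0.95, adjusted p = 0.0086), the cytosolic aspartate transaminase Got1 (1.06, adjusted p = 0.0107), the cytosolic malate dehydrogenase Mdh1 (0.91, adjusted p = 0.0239, held in 19 of 26 alternative fits) and the oxoglutarate carrier Slc25a11 (0.71, adjusted p = 0.0175, all in edgeR). Values of Got1 and Mdh1 did not overlap between the genotypes. Citrate synthase (Cs) and the mitochondrial malate dehydrogenase (Mdh2), also abundant, had 0.57 and 0.71 and did not pass (adjusted p = 0.0950 and 0.0713 in edgeR).

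Pcx is 1 of several enzymes that carry biotin. Both acetyl-CoA carboxylase genes were also higher in IKO mice without overlap, Acaca at 19.9 ± 5.54 against 37.8 ± 8.25 CPM and Acacb at 5.49 ± 2.78 against 16.1 ± 5.36 CPM (WT against IKO, SD, n = 7 each), with log2 fold changes of 0.92 and 1.54 (adjusted p = 0.0112 and 0.0148 in edgeR). Pccb, of propionyl-CoA carboxylase, had 0.13 (adjusted p = 0.702 in edgeR), and among the genes of biotin supply Btd had 0.39 and Slc5a6 -0.24 (adjusted p = 0.189 and 0.652 in edgeR). The branched-chain oxoacid dehydrogenase is a relative of the pyruvate complex with its own kinase. Of its 5 genes, 0 were called in edgeR or DESeq2, and 1 had an unadjusted p under 0.05 (edgeR). Over all genes tested, edgeR called 4.38% higher and 4.28% lower (11.9% and 18.5% unadjusted), and DESeq2 7.62% and 8.86%. Counts in 5 genes are too few to be set apart from those shares. The median log2 fold change of the 5 was -0.39. The most abundant of them were the kinase gene Bckdk (0.15), Dbt (-0.39) and Bckdha (0.56).

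Of 14 tested genes for known transcriptional regulators of the Pdk family, 3 were called higher and 1 lower. Among all genes tested, 4.38% were called higher and 4.28% lower. Foxo1, a forkhead factor held out of the nucleus by insulin, had 25.2 to 34.0 CPM in WT and 40.8 to 67.6 CPM in IKO mice, without overlap (log2 fold change 0.93, standard error 0.13, adjusted p = 0.00104 in edgeR). Ppard had 67.7 to 105 CPM in WT and 111 to 209.9 CPM in IKO mice, also without overlap (log2 fold change 0.74, adjusted p = 0.0192 in edgeR). Ppara had 5.65 to 30.4 CPM in WT and 27.9 to 112 CPM in IKO mice, with IKO 2 inside the WT range. Its call (1.55, adjusted p = 0.0285 in edgeR) held in 19 of 26 alternative fits. Stat5b, a mediator of growth hormone and prolactin signals, was lower in every IKO mouse than in any WT mouse, at 13.1 to 21.6 CPM in WT and 7.06 to 11.9 CPM in IKO mice (log2 fold change -0.77, adjusted p = 0.0151 in edgeR). The most abundant regulators, Esrra (0.07), Rxra (0.37) and Nr3c1 (-0.17), did not pass (adjusted p = 0.864, 0.130 and 0.694 in edgeR).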

How the data were processed

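Total RNA of the ileum mucosa was sequenced by the authors, who aligned the reads to mm10 with HISAT2 2.0.5 and counted them with featureCounts 1.5.0-p3. The strand setting and read filters are not given in the sources used here. Counts were deposited as whole numbers, not normalized, and the deposited FPKM equal those counts per kilobase times 1 constant per sample. Genotypes came from the sample titles, and the columns named KO are the IKO mice. Each library is 1 mouse.

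Counts were compared with edgeR 4.0.16 in R 4.3.3 (filterByExpr, TMM, glmQLFit and glmQLFTest, genotype as the only term), with p-values adjusted by Benjamini and Hochberg over 13846 genes and called at 0.05. The standard error is the log2 fold change divided by the square root of F, and intervals are at 95%. FPKM served for levels between genes. Log2 CPM for ratios and correlations used a prior count of 2. Permutation tests were two-sided, exact for ratios and within genotypes, and with 100000 permutations for correlations over all mice (scipy 1.17.1). Tested on counts simulated for this comparison with 13631 genes, the method called 37.6% of 85 genes with a log2 change of 1. It called 86.1% of 108 genes with one of 2, and 2.34% of the calls were false. Counts were drawn from the fitted means and dispersions, without differences between mice in cell makeup or library quality. These shares hold for that setting and do not give the share of false calls in the data. For each member, the transcript with the longest coding sequence was aligned to all GENCODE M21 transcripts (at least 150 bases at 95% identity).

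The genes named are the 10 members, Ncor1, the listed genes around pyruvate that passed, otherwise the 3 with the highest level per list, and the 5 genes most correlated with Pdk4 and with Pcx, by either measure, among genes with a mean log2 CPM of at least 1. The members and lists were chosen with earlier results of these data known. Alternatives were DESeq2 1.42.0, RLE scaling, other filters, limma 3.58.1 on log2 FPKM (pseudocounts 1 and 0.1), limma-voom with quality weights, the sample number as a block, mitochondrial genes or libraries left out, and each mouse left out in turn. Values of a few listed genes are left out of the text.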

Additional observations from a re-analysis of the deposited data

Results flagged for a closer look

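Single mice stood apart from the rest of their group in 3 of 60 groups of 7 mice examined over 30 measures (log2 CPM of members and of called genes around pyruvate, the ratios, and the Pdk4 share), where 1 in 20 would give 3.0. In each, the gap to the nearest mouse, as a share of the group's range, was above Dixon's 95% critical value. Pdk2 was high in IKO 4 (gap 0.581), the library with 50.3% of its counts on mitochondrially encoded genes. Foxo1 was low in IKO 2 (gap 0.622), the mouse lowest in Pdk4 and in Ncor1 among IKO mice. Stat5b was low in IKO 6 (gap 0.574).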

How the results depend on the processing

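Over 26 alternative fits (27 for Mpc1), Pdk4 and Pcx were called in every one, with log2 fold changes of 3.09 to 3.61 (adjusted p up to 0.0136) and 0.83 to 1.04 (adjusted p up to 0.0450). Pdk3 was called by DESeq2 alone (0.71). The log2 fold change of Mpc1, near 0, turned positive with DESeq2 (0.0220), RLE (0.0133), no filter (0.0001), limma on log2 FPKM with a pseudocount of 1 (0.0254, with or without a filter) or 0.1 (0.0340), without WT 3 and IKO 4 (0.0021) and with Mpc1-ps added (0.35). With 1 mouse left out it ran from -0.0908 to 0.0523, that of Pdk3 from 0.51 to 0.76, and the Pcx/Pdha1 difference from 0.5305 to 0.8351. The Pdha1 and Pdhb correlation was 0.0054 on log2(FPKM + 1). Genes around pyruvate called higher and lower were 21 and 2 with DESeq2, 5 and 0 with the replicate block, and 7 and 0 without WT 3, WT 4 and IKO 4. Of all genes, 1200 were called, but 2571 with DESeq2, 1889 with limma-voom and quality weights, 508 without a filter, 614 with limma on FPKM without a filter, 362 with the replicate block, 648 without WT 3 and IKO 4 and 433 without those and WT 4. With 1 mouse left out the count ran from 515 (without IKO 5) to 1371 (without WT 2). The causes were not tested. Same-numbered mice deviated together, with a correlation over 0.1, in 1 of 7 pairs. A pairing by number was thus not detected, though a correlation over all genes cannot exclude one. The replicate block kept the calls of Pdk4 and Pcx. Leaving out WT 3, WT 4 and IKO 4 and adding Mpc1-ps were chosen after seeing the data. Depth limits Pdp1 and Mpc1 most, with 27 and 75 counts in their lowest libraries.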

Other observations

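Among 11259 genes, those whose log2 CPM followed Pdk4 most closely over the 14 mice were Rasd1 (Pearson r = 0.935), Akr1b7 (0.934), Sh3yl1 (0.931), Angptl4 (0.910) and Foxo1 (0.908). All 5 were also called higher in IKO mice, so the genotype alone gives them a shared pattern, and no p is given. Angptl4, a secreted inhibitor of lipoprotein lipase, had 48.5 CPM on average in WT and 226 CPM in IKO mice, and Akr1b7, an aldo-keto reductase, had 46.3 and 199 CPM. Once the genotype means were removed, the closest genes were Sgk1 (r = 0.879), Klf7 (0.863), Pck1 (0.810), Osbpl9 (0.807) and Inpp5e (0.798). Of these, Sgk1, a kinase named for its response to serum and glucocorticoids, was called between the genotypes (log2 fold change 1.27, adjusted p = 0.0365 in edgeR). Pck1, which turns oxaloacetate into phosphoenolpyruvate, varied widely within a genotype, from 46.7 to 405 CPM in WT and from 35.5 to 694 CPM in IKO mice (log2 fold change 0.87, adjusted p = 0.343 in edgeR).

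For Pcx the closest genes were Npas2 (r = 0.964), Dusp6 (0.945), Fmo5 (0.944), Irs2 (0.942) and Copg1 (0.941) over all mice, and Copg1 (0.917), Urgcp (0.900), Wipf2 (0.898), Npas2 (0.897) and Klf4 (0.884) after removal of the genotype means. Npas2, a partner of the clock factor BMAL1, had 18.5 CPM on average in WT and 51.2 CPM in IKO mice (log2 fold change 1.47, adjusted p = 0.00247 in edgeR). No gene was in both the Pdk4 and the Pcx lists. The mice share depth, scraping and scaling, and the genes were picked as the highest of many.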
